A study of Homo sapiens with 6 samples.

Results

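The cytosolic and organelle chaperones of the heat shock families were followed in U251 glioma cells after RNA interference against RPL13, a gene of the large ribosomal subunit. Members were taken by gene symbol from the protein-coding rows of the deposited table: the DNAJA, DNAJB and DNAJC cochaperones, the HSPA proteins other than HSPA5, HSPH1, the HSPB small heat shock proteins, HSPD1 and HSPE1, HSP90AA1, HSP90AB1 and TRAP1, BAG1 to BAG6, HSF1 and HSF2, and the chaperonin subunits TCP1 and CCT2 to CCT8. This gave 75 genes of 21429 rows. Of these, 70 had a mean of at least 3 over the 6 libraries and were tested; DNAJB7, DNAJB13, HSPA12B, HSPB6 and HSPB7 did not reach that level. HSPA1A and HSPA1B, the stress-inducible HSP70 genes, are not analysed here, and neither are HSPA1L, BAG6 and DNAJC7.

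HSP70 proteins bind unfolded segments of other proteins and release them as ATP is hydrolysed and exchanged. J-domain proteins of the DNAJ classes bring substrates and start the hydrolysis, while BAG proteins and the HSP110 proteins speed the exchange of nucleotide. HSP90 completes the folding of many kinases and receptors, small heat shock proteins hold unfolded chains, and the ring-shaped chaperonins (TRiC in the cytosol, HSPD1 with HSPE1 in mitochondria) enclose a chain while it folds. HSF1 is the transcription factor that raises many of these genes when unfolded protein accumulates in the cytosol. Chaperones of this kind are also known to bind amyloidogenic proteins.

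The 3 siRPL13 libraries came from cells that received an siRNA against RPL13, and the 3 siNC libraries from cells that received a control siRNA. Both groups were U251, a long-established line from a human glioma, carrying a stable copy of mutant amyloid precursor protein (K670N/M671L). Both were electroporated with 2.5 µL of a 20 µM siRNA stock. Both received doxycycline at 1 µg/mL in fresh medium at 24 h, which switches the precursor on, and were lysed for RNA at 72 h. The labels number biological replicates within a group and say nothing of separate cultures or days, so p-values measure the spread between these libraries, which may be technical. The deposited values are regularized logarithms to base 2, called rlog. They carry no read depth, so no counting interval can be given, and rlog pulls the differences of low genes towards 0.

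RPL13 stood at 13.03, 13.12 and 14.09 in siRPL13 replicates 1 to 3, against 14.05, 14.16 and 14.18 in siNC. The targeted transcript was thus not lowered in the library labelled siRPL13 replicate 3. Each comparison is therefore given with all 6 libraries and also without that library, as a 5-library comparison of 2 against 3. The glioma and astrocyte markers VIM, NES, CD44, EGFR, SOX9 and GFAP had a mean siNC rlog of at least 12, while CD68 (myeloid), CDH1 (epithelial) and RBFOX3 (neuronal) stayed under 1 in all 6 libraries. Of the other markers listed, S100B (astrocyte) averaged 5.66 in siNC, CSF1R (myeloid) 5.02, CDH5 (endothelial) 6.38, and SNAP25 and SYT1 (neuronal) 6.90 and 8.70. PTPRC, AIF1, PECAM1 and EPCAM are not analysed here. Some markers differed between the groups: of 11 tested, 0 rose and 3 fell with 5 libraries (limma), which were VIM (-0.31 ± 0.07 SE, adjusted p 0.0091), NES (-0.34 ± 0.05, adjusted p 0.00227) and CDH5 (-0.46 ± 0.08, adjusted p 0.0034), and 0 were called with all 6. Over all genes 8.42% were called higher and 10.7% lower with 5 libraries, and 0.00% with all 6. VIM, NES, GFAP and CDH5, 4 of the 11 tested, were lower in all 3 siRPL13 libraries than in every siNC library, beside 6.90% of all genes. In the other direction there were 0 of the 11 markers, beside 6.92% of all genes. The part of these shifts in the chaperone results was not tested.

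In U251 cells the constitutive chaperones were among the most abundant transcripts of the table. To compare genes with each other, the log2 of the merged exon length in kilobases was subtracted from the siNC mean rlog (a level per kilobase, log2 scale). On this scale HSP90AB1, the constitutive cytosolic HSP90, stood at 14.32, HSPB1 at 13.81 and HSPA8, the constitutive HSP70, at 13.41, at or above the percentile of 99.6 among the genes tested. DNAJA1, the J-protein partner of HSPA8, followed at 12.44, HSP90AA1 at 12.23 and HSPD1, the mitochondrial chaperonin, at 12.08. The 8 chaperonin subunits expressed in most tissues (TCP1, CCT2 to CCT5, CCT6A, CCT7 and CCT8) lay close together, between 10.53 and 11.97, whereas CCT6B, the testis paralog of CCT6A, stood at 2.76. At the other end, HSPA6, an HSP70 that is mostly silent without heat stress, stood at 2.93 per kilobase and HSPA2 at 1.29. Of the heat shock factors, HSF2 (7.78) stood above HSF1 (4.87). Merged exon length counts every annotated exon, so long annotations lower a level.

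**Figure D1:**
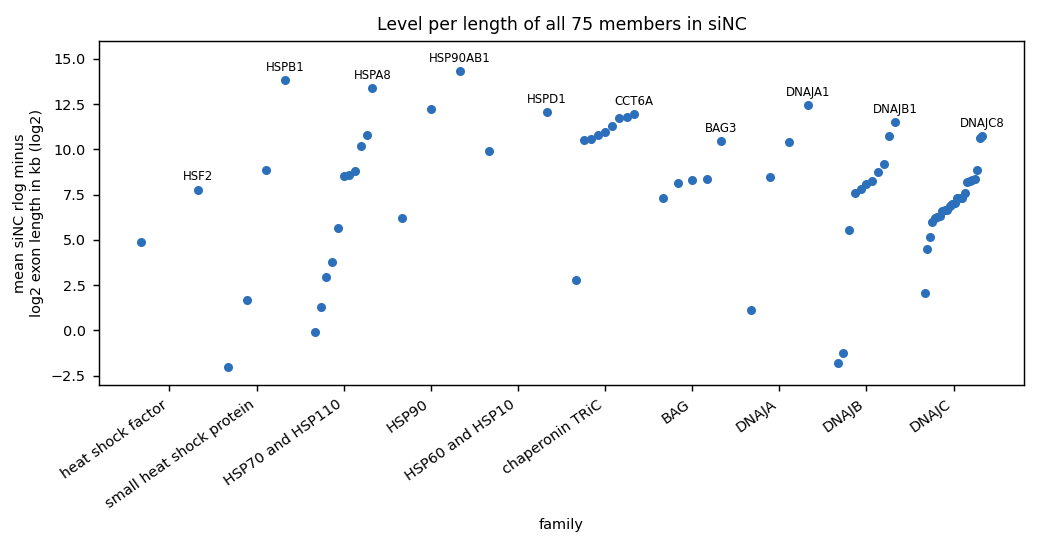
Mean siNC rlog minus the log2 of the merged exon length in kilobases (vertical axis, log2) of all 75 members, 1 point per gene, grouped by family (horizontal axis) and sorted by level within a family. The top gene of each family is named; HSP90AB1 lies at 14.32 and HSPB1 at 13.81, and the 8 common chaperonin subunits form a narrow group between 10.53 and 11.97.

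Across these families the transcripts differed little between siRPL13 and siNC. With all 6 libraries 0 of 70 members passed the test (limma, Benjamini-Hochberg adjusted over all 15327 genes), with a background of 0.00% of all genes called. At an unadjusted p under 0.05 there were 3 members against 8.32% of all genes: HSPB1 was higher, beside 3.91% of all genes, and DNAJB9 and DNAJB11 were lower, beside 4.40%. In the 5-library comparison 3 members rose and 6 fell, which is 4.29% and 8.57% of the members, beside 8.42% of all genes called higher and 10.7% called lower. The 9 calls together were 12.9% of the members, below the 19.1% of all genes. At an unadjusted p under 0.05 there were 17 members with 5 libraries, 7 higher and 10 lower, beside 33.4% of all genes (15.8% higher and 17.6% lower). The median difference over the members was 0.02, beside 0.00 over all genes tested (-0.0014 before rounding), and the median absolute difference was 0.08 beside 0.10. The members that fell were DNAJB11, DNAJB9, DNAJB12, DNAJB2, BAG3 and DNAJC5, and those that rose were DNAJC16, BAG5 and HSPB1. "Rose" and "fell" below refer to an adjusted p under 0.05 by limma in this 5-library comparison. In bulk RNA, fewer cells with a transcript and less of it per cell cannot be told apart.

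The calls rest on siRPL13 replicates 1 and 2 together. Both of these lay outside the siNC range on the same side for 33 of 70 members, 15 higher and 18 lower, beside 51.3% of all genes (24.7% higher and 26.6% lower). For 7 of the 9 called members the library labelled siRPL13 replicate 3 lay on the other side of the siNC mean, and only DNAJB9 and HSPB1 kept the direction in it. With siRPL13 replicate 1 left out as well 0 members were called, beside 0.665% of all genes higher and 0.92% lower. Dropping siRPL13 replicate 2 in its place gave 0 that rose and 2 that fell (DNAJB11 and DNAJB9), beside 2.5% of all genes higher and 3.65% lower. When a control library was left out instead, the whole table moved too. Without siNC replicate 1, 6 members rose and 8 fell (8.57% and 11.4%), beside 11.3% of all genes higher and 13.1% lower. Without siNC replicate 2, 2 rose and 6 fell, beside 6.6% and 8.84% of all genes, and without siNC replicate 3, 1 rose and 6 fell, beside 6.11% and 8.63%. Over all 6 libraries the 3 siRPL13 values lay above the 3 siNC values for 2 members (HSPB1 and HSPA12A), beside 6.92% of all genes. They lay below them for 4 members (DNAJB9, DNAJC3, DNAJC30 and HSPA9), beside 6.90%. DNAJC30 (siNC mean 8.64) shares part of its annotated span with the more abundant BUD23 (mean rlog 12.34) on the opposite strand.

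**Figure D2:**
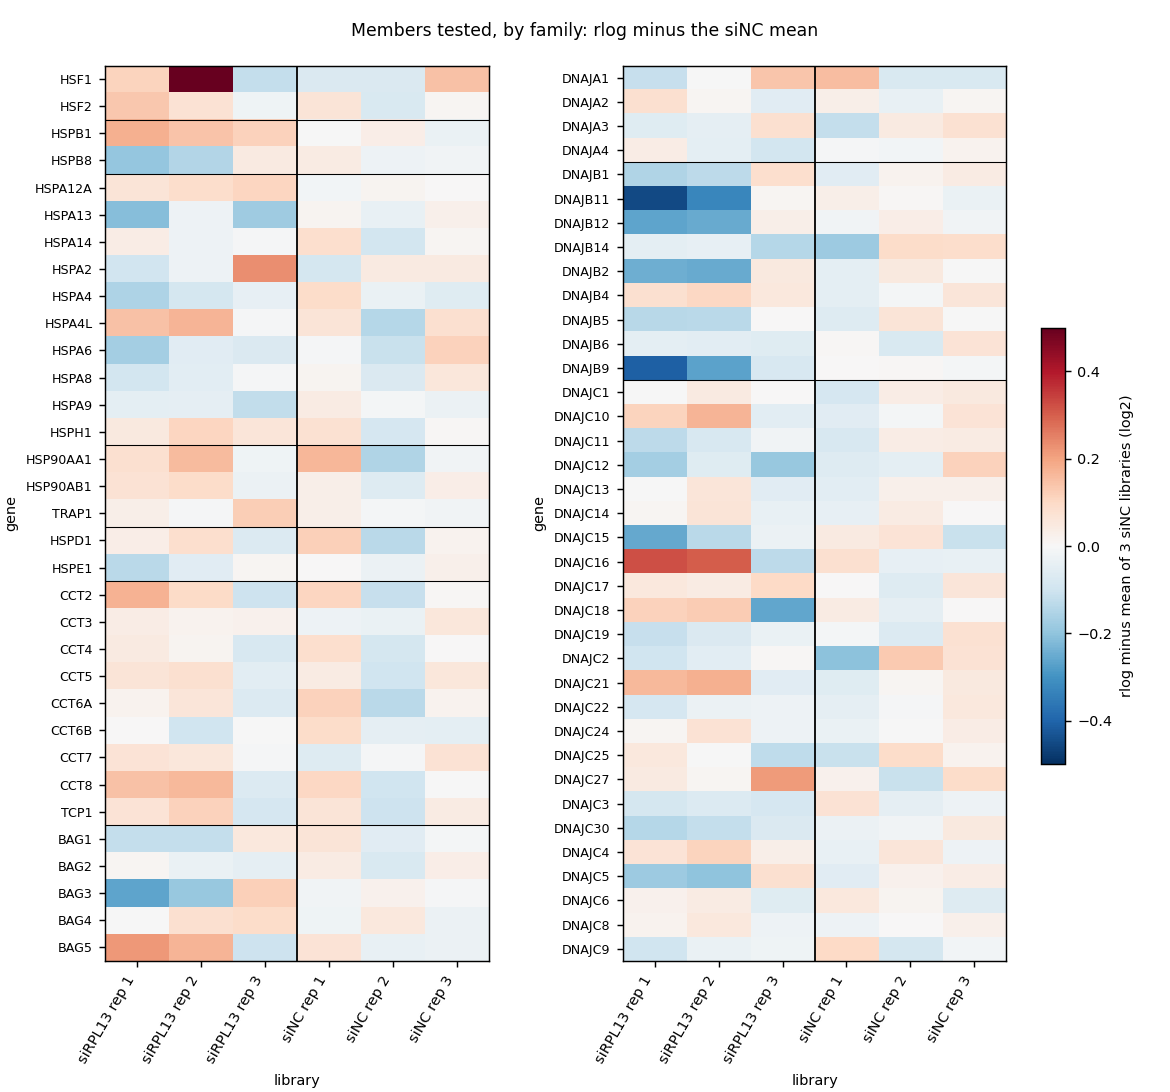
Rlog minus the mean of the 3 siNC libraries (colour, log2) for the 70 members tested, with 1 row per gene, black lines between families and 1 column per library, siRPL13 left of siNC. DNAJB11 and DNAJB9 are lowest in siRPL13 replicates 1 and 2, DNAJC16 is high in the same libraries and HSF1 is darkest in siRPL13 replicate 2, while most rows are pale in all columns.

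The heat shock factors themselves did not pass the test in either comparison. HSF1, the master factor of the cytosolic heat shock response, stood at 7.39, 7.78 and 7.16 in siRPL13 replicates 1 to 3, against 7.20, 7.21 and 7.43 in siNC. Replicate 2 of siRPL13 alone lay above the siNC range; the groups overlapped. The 5-library difference was 0.30 ± 0.12 (SE), with a limma adjusted p of 0.0875, and with all 6 libraries it was 0.16 ± 0.15 with an adjusted p of 0.719. HSF1 shares part of its annotated span with DGAT1 on the opposite strand, and no source used here says whether reads were counted by strand. HSF2, a factor that pairs with HSF1 and acts in development, stood at 9.35, 9.29 and 9.19 in siRPL13 and at 9.28, 9.14 and 9.22 in siNC, a 5-library difference of 0.10 ± 0.07 (adjusted p 0.306, limma).

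The known HSF1 targets listed here showed no common direction. Of 14 genes listed 12 were in the table: HSPA4L, HSPA6, HSPA8, HSPH1, HSP90AA1, HSP90AB1, HSPB1, DNAJA1, DNAJB1, BAG3, HSPD1 and HSPE1. They include the constitutive HSPA8 and HSP90AB1, and HSPB8 was not on the list. Of the 12, 1 rose (HSPB1) and 1 fell (BAG3), which is 16.7% beside 19.1% of all genes. The other 10 were not called. In the 5-library comparison 6 differences were positive and 6 negative, with a median of 0.00 (0.0006 before rounding). Their 95% intervals all lay between -0.33 and 0.33 on the rlog scale. A 2-fold change on that scale thus lay outside the interval of each of the 12. For HSPA6, a low gene at 2.93 per kilobase, rlog pulls differences towards 0, so its interval says less about the transcript. Set against the siNC mean of each gene, their median stood at -0.03, 0.04 and 0.0028 in siRPL13 replicates 1 to 3, against 0.02, -0.07 and 0.02 in siNC replicates 1 to 3.

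The promoters of members were read for the motif of the heat shock factor and for that of reticulum stress, over the 250 bases before each start in the RefSeq promoter table (GRCh38.p14), which held 67 of the 75 members. The heat shock element was searched as GAANNTTC, which reads the same on both strands. It was found in 18.0% of 89 member promoters and in 5.78% of all 35116 promoters of that length. Of the 14 tested members with a match 1 rose (HSPB1) and 0 fell, beside 8.42% of all genes called higher and 10.7% called lower. The 5-library differences of these 14 members lay between -0.17 and 0.16, with a median of -0.01. The promoters below belong to HSPB1, which rose, and to HSPA8 and HSP90AB1, the abundant constitutive genes that were not called; capitals mark GAANNTTC. They lie at chr7:76302423-76302672 (plus strand), chr11:123062137-123062386 (minus strand) and chr6:44247693-44247942 (plus strand), and for HSP90AB1 the start with the most matches of 3 was taken.
HSPB1: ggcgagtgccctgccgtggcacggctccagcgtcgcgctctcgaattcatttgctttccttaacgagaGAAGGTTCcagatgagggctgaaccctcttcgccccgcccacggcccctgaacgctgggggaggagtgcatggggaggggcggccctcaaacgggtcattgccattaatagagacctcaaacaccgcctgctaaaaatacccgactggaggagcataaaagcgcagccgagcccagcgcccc
HSPA8: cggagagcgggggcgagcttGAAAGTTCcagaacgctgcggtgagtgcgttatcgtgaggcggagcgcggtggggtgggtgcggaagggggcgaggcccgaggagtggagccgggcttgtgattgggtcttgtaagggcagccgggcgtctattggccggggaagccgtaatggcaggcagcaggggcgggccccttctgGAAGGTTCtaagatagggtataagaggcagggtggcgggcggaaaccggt
HSP90AB1: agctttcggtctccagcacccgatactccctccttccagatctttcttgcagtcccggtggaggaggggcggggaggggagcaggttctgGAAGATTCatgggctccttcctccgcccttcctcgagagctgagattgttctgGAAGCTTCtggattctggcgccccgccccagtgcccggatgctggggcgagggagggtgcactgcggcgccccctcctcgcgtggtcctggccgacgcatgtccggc
HSPB1 has 1 match of GAANNTTC, and HSPA8 and HSP90AB1 have 2 each. Of the longer form with 3 units HSPB1 has 0 matches, and HSPA8 and HSP90AB1 have 2 each.

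HSPA8, the main constitutive HSP70, stood at 15.59, 15.63 and 15.68 in siRPL13 and at 15.70, 15.61 and 15.74 in siNC. The groups overlapped and the 5-library difference was -0.07 ± 0.06 (SE; 95% interval -0.20 to 0.06; adjusted p 0.416, limma). HSPA6, which responds to severe stress, stood at 4.01, 4.12 and 4.11 in siRPL13, against 4.17, 4.07 and 4.29 in siNC, without a call. HSPH1, an HSP110 exchange factor induced by heat, stood at 11.93, 11.99 and 11.94 in siRPL13 and at 11.96, 11.80 and 11.89 in siNC, with a 5-library difference of 0.08 ± 0.06. Among all 10 HSP70 and HSP110 genes tested 0 were called with 5 libraries, beside 19.1% of all genes. At an unadjusted p under 0.05 (limma) there were also 0, beside 33.4%. With all 6 libraries both counts were 0 too, beside 0.00% and 8.32%. Their 5-library differences ran from -0.12 for HSPA4, a constitutive HSP110, to 0.16 for HSPA4L, its heat-inducible relative (adjusted p 0.165 and 0.174, limma). HSPA12A, a distant HSP70 relative, stood at 7.43, 7.46 and 7.48 in siRPL13 and at 7.36, 7.38 and 7.37 in siNC, and the groups did not overlap although the limma adjusted p was 0.493 (5 libraries). It overlaps ENO4 on the opposite strand.

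The cytosolic HSP90 genes were not called. HSP90AA1, the inducible form, stood at 14.70, 14.78 and 14.60 in siRPL13, against 14.79, 14.47 and 14.61 in siNC. The siNC libraries spanned the whole range of the siRPL13 libraries. The 5-library difference was 0.12 ± 0.08 (SE; limma adjusted p 0.327), and that of HSP90AB1 was 0.08 ± 0.06 (adjusted p 0.342). HSP90AB1 stood at 15.96, 15.99 and 15.86 in siRPL13 and at 15.92, 15.83 and 15.93 in siNC. The table also holds 42 rows named as pseudogenes of members, 21 of them with a mean of at least 3, and reads of HSP90, HSPA8, HSPD1, HSPE1 and chaperonin genes cannot be parted from those copies with certainty.

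HSPB1, the small heat shock protein HSP27 (GRCh38 chromosome 7, 76302544 to 76304295, plus strand), was the member that was higher in all 3 siRPL13 libraries and also passed the 5-library test. It stood at 14.70, 14.66 and 14.63 in siRPL13 replicates 1 to 3, against 14.51, 14.55 and 14.48 in siNC replicates 1 to 3. The lowest siRPL13 value, that of the library in which RPL13 was not lowered, lay above the highest siNC value. With all 6 libraries the means were 14.66 ± 0.03 in siRPL13 and 14.52 ± 0.03 in siNC (SD, n = 3 each), which differ by 0.15 ± 0.06 (SE; limma unadjusted p 0.0321, adjusted p 0.589). In the 5-library comparison the gene rose by 0.16 ± 0.05, to 112% of siNC on the rlog scale (adjusted p 0.0451, limma); the adjusted p ran from 0.0117 to 0.381 over 13 other settings, 5 of which lost the call, among them the fits without siNC replicate 3 and with the replicate number as a block. HSPB8, a small heat shock protein that works with BAG3 in selective autophagy, stood at 10.18, 10.23 and 10.42 in siRPL13 and at 10.42, 10.35 and 10.35 in siNC. Its 5-library difference of -0.17 ± 0.05 had an adjusted p of 0.0539 (limma).

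BAG3, the heat-inducible exchange factor that hands HSP70 clients to autophagy (chromosome 10, 119651370 to 119677819, plus strand), stood at 11.66, 11.73 and 12.04 in siRPL13 replicates 1 to 3 and at 11.91, 11.94 and 11.92 in siNC replicates 1 to 3. Replicates 1 and 2 of siRPL13 lay below every siNC library, and the library labelled siRPL13 replicate 3 lay above every one. BAG3 fell by 0.23 ± 0.05 (SE, 5 libraries) to 85.5% of siNC on the rlog scale, with a limma adjusted p of 0.0107; with all 6 libraries the difference was -0.11 ± 0.09 (adjusted p 0.705). BAG5, which carries several BAG domains and acts on HSP70, stood at 10.97, 10.92 and 10.65 in siRPL13 and at 10.82, 10.72 and 10.72 in siNC. It rose by 0.19 ± 0.06 (adjusted p 0.0335, limma), but the library labelled siRPL13 replicate 3 was the lowest of the 6, and 7 of 13 other settings lost the call, among them the fits without siNC replicate 2, without siNC replicate 3 and with the replicate number as a block. BAG1, BAG2 and BAG4 were not called, with 5-library differences of -0.12, -0.01 and 0.04. BAG5 overlaps KLC1 on the opposite strand.

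**Figure D3:**
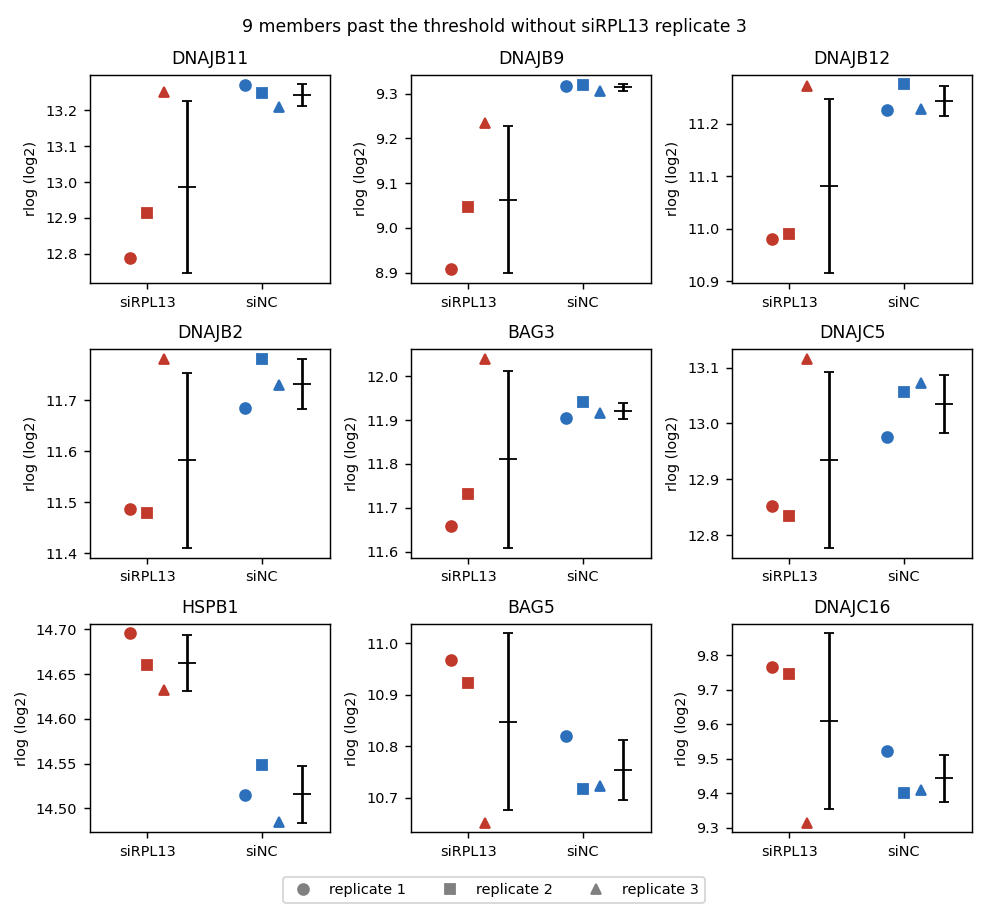
Rlog (vertical axes, log2, not starting at 0) of the 9 members past the threshold in the 5-library comparison, with 1 point per library, siRPL13 in red left of siNC in blue. Symbols differ by replicate number, and bars show each group's mean and SD (n = 3). In 7 panels the triangle of siRPL13 replicate 3 lies on the other side of the siNC mean from replicates 1 and 2; in HSPB1 and DNAJB9 it lies on the same side.

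Of the 37 J-domain proteins tested 5 fell and 1 rose, which is 16.2% of them beside 19.1% of all genes. Of the 9 class B members tested 4 fell and 0 rose, which is 44.4% of them beside 10.7% of all genes lower; the difference between these shares was not tested. In class B 8 of the 9 differences were negative, with a median of -0.14 beside 0.00 over all genes. Set against the siNC means, the class B median stood at -0.15, -0.13 and 0.0095 in siRPL13 replicates 1 to 3, against -0.05, 0.02 and -0.0017 in siNC replicates 1 to 3. None of the 4 class A genes was called (limma, 5 libraries), beside 19.1% of all genes. An unadjusted p under 0.05 (limma) came in 0 of them, beside 33.4% of all genes. The class A differences lay between -0.06 and 0.04. Of 24 class C genes 1 rose and 1 fell, which is 8.33% of them beside 19.1% of all genes. The class C median difference was 0.03.

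The largest falls were those of endoplasmic reticulum J-proteins. DNAJB11 (ERdj3), a lumenal partner of the reticulum's HSP70 (chromosome 3, 186567403 to 186585800, plus strand), stood at 12.79, 12.91 and 13.25 in siRPL13 replicates 1 to 3, against 13.27, 13.25 and 13.21 in siNC. It fell by 0.39 ± 0.05 (SE, 5 libraries) to 76.3% of siNC, with an adjusted p of 0.0012 (limma), while the library labelled siRPL13 replicate 3 lay inside the siNC range. DNAJB9 (ERdj4), a cofactor of degradation of misfolded reticulum proteins (chromosome 7, 108569568 to 108574850, plus strand), stood at 8.91, 9.05 and 9.23 in siRPL13 and at 9.32, 9.32 and 9.31 in siNC. All 3 siRPL13 libraries lay below all 3 siNC libraries. DNAJB9 fell by 0.34 ± 0.07 to 79.1% of siNC (adjusted p 0.0067, limma), and with all 6 libraries its difference was -0.25 ± 0.09 with an unadjusted p of 0.0200 and an adjusted p of 0.589. DNAJB9 overlaps PNPLA8 and THAP5, and DNAJB11 overlaps TBCCD1, each on the opposite strand.

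The reticulum stress element, searched on both strands as CCAAT, then 9 bases of any kind, then CCACG, was found in 0 of 89 member promoters and in 0.074% of all promoters. Its parts are short and common: CCAAT was in 34.8% of member promoters and 32% of all, and CCACG in 47.2% of member promoters and 33.5% of all. The promoters of DNAJB9 (chr7:108569624-108569873, plus strand) and DNAJB11 (chr3:186570470-186570719, plus strand) are shown because these genes had the largest falls among members; capitals mark CCAAT or CCACG on either strand.
DNAJB9: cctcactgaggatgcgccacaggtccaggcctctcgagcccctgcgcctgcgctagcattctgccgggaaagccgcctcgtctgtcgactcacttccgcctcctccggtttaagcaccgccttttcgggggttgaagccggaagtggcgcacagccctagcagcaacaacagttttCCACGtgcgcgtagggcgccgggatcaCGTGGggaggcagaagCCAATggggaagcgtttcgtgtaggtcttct
DNAJB11: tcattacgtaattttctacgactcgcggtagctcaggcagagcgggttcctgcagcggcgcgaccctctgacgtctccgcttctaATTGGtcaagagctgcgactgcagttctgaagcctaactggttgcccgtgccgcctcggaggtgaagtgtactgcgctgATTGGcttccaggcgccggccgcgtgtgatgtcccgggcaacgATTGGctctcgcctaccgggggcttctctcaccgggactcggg
DNAJB9 has 2 CCACG matches and 1 CCAAT match, and DNAJB11 has 3 CCAAT matches and 0 of CCACG. A match is a description of the letters, not of a bound site.

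DNAJB12, a membrane J-protein of the reticulum that faces the cytosol, stood at 10.98, 10.99 and 11.27 in siRPL13 and at 11.23, 11.28 and 11.23 in siNC, and fell by 0.26 ± 0.05 (SE; adjusted p 0.0059, limma). Its relative DNAJB14 was not called (9.19, 9.20 and 9.10 in siRPL13, against 9.06, 9.34 and 9.33 in siNC). DNAJC16, a less studied reticulum J-protein, went the other way: it stood at 9.77, 9.75 and 9.31 in siRPL13 and at 9.52, 9.40 and 9.41 in siNC, and rose by 0.31 ± 0.06 to 124% of siNC (adjusted p 0.0077, limma), although the library labelled siRPL13 replicate 3 was again the lowest of the 6. DNAJC10, a reticulum disulfide reductase with a J-domain, had a 5-library difference of 0.14 ± 0.05 and was not called (adjusted p 0.0953, limma). DNAJC3, the P58IPK inhibitor of eIF2 alpha kinases, stood at 10.76, 10.78 and 10.76 in siRPL13, against 10.92, 10.80 and 10.82 in siNC; the groups did not overlap, but the difference of -0.08 ± 0.06 was not called (adjusted p 0.344, limma). Of the 10 members put on the reticulum list 1 rose and 3 fell, and of the 60 tested members not on that list 2 rose and 3 fell. That is 40% and 8.33% called, beside 19.1% of all genes, and these shares depend on which members were listed. The 3 reticulum members that fell, DNAJB11, DNAJB9 and DNAJB12, are also among the class B falls given above, so those counts are not separate. The reticulum count and the count outside it are descriptions of lists drawn up with earlier results known.

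In the cytosol and at vesicles 2 further J-proteins fell. DNAJB2, a neuronal-enriched J-protein that sends HSP70 clients to the proteasome and is known to restrain protein aggregation (chromosome 2, 219279267 to 219286900, plus strand), stood at 11.49, 11.48 and 11.78 in siRPL13 and at 11.68, 11.78 and 11.73 in siNC, and fell by 0.25 ± 0.05 (SE; adjusted p 0.0077, limma). DNAJC5, the cysteine string protein of secretory vesicles, stood at 12.85, 12.83 and 13.12 in siRPL13 and at 12.98, 13.06 and 13.07 in siNC, and fell by 0.19 ± 0.05 (adjusted p 0.0233, limma); with quantile scaling, without siNC replicate 3 and with the replicate number as a block that call was lost. In both genes siRPL13 replicates 1 and 2 lay below all siNC libraries, while the library labelled siRPL13 replicate 3 lay within the siNC range for DNAJB2 and above it for DNAJC5. DNAJB1, the main inducible partner of HSP70, stood at 13.25, 13.27 and 13.49 in siRPL13, against 13.35, 13.42 and 13.44 in siNC, with a difference of -0.14 ± 0.05 that was not called (adjusted p 0.0708, limma). DNAJA1 showed 13.77, 13.88 and 14.02 in siRPL13 and 14.04, 13.81 and 13.81 in siNC, a spread within each group larger than the difference of -0.06 ± 0.07. DNAJB6, a strong suppressor of amyloid-type aggregation in test systems, had a difference of -0.05 ± 0.05 (adjusted p 0.543, limma).

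**Figure D4:**
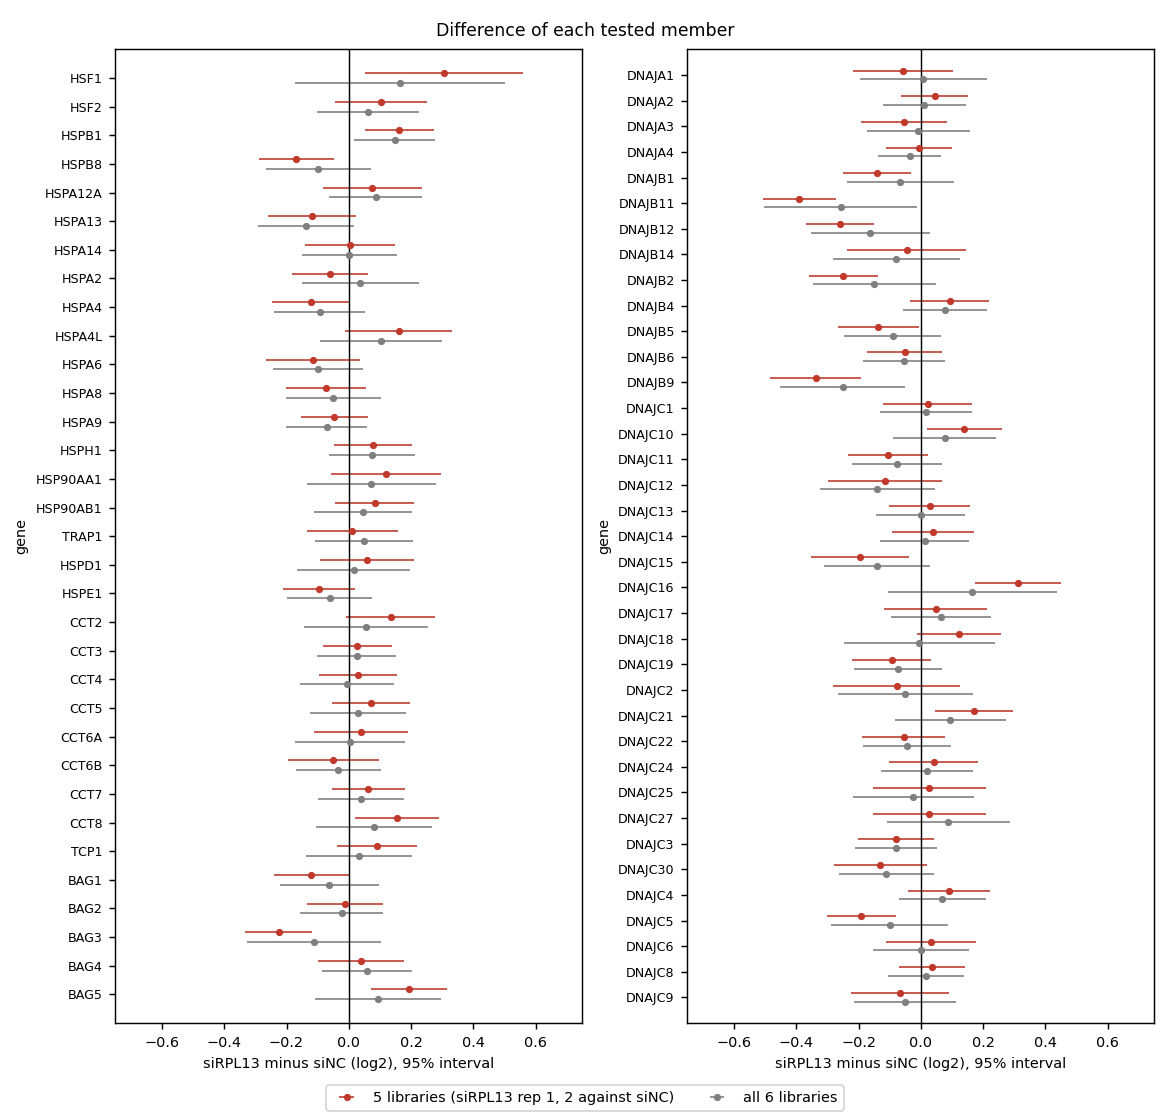
Difference of each of the 70 tested members, siRPL13 minus siNC on the log2 scale (horizontal axis), with 95% intervals from limma, for the 5-library comparison (red) and all 6 libraries (grey), 1 gene per line. DNAJB11 (-0.39) and DNAJB9 (-0.34) lie furthest left and DNAJC16 (0.31) and HSF1 (0.30) furthest right in the 5-library comparison.

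The chaperonin TRiC, which folds actin and tubulin, varied between libraries within both groups, with most of its subunits moving alike. Of 9 chaperonin genes 0 were called with 5 libraries, beside 19.1% of all genes, and 0 with all 6, beside 0.00%. At an unadjusted p under 0.05 (limma) there was 1, CCT8, with 5 libraries, beside 33.4% of all genes. With all 6 there were 0, beside 8.32%. All 8 common subunits had a positive 5-library difference, between 0.03 and 0.16, with 95% intervals between -0.11 and 0.29. Set against the siNC means, their median stood at 0.07, 0.07 and -0.07 in siRPL13 replicates 1 to 3, against 0.07, -0.10 and 0.03 in siNC replicates 1 to 3. The subunits were lowest in siNC replicate 2 in 7 of 8 cases, and the library labelled siRPL13 replicate 3 was among the lowest pair in 7 of 8. siNC replicate 1 thus stood as high as siRPL13 replicates 1 and 2.

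CCT8, the theta subunit, had the largest difference of the ring: 12.46, 12.48 and 12.25 in siRPL13, against 12.42, 12.21 and 12.31 in siNC, which differ by 0.16 ± 0.06 with 5 libraries (SE; limma adjusted p 0.0983). CCT2, the beta subunit, stood at 12.82, 12.74 and 12.54 in siRPL13 and at 12.75, 12.53 and 12.65 in siNC. TCP1, the alpha subunit, stood at 13.34, 13.39 and 13.19 in siRPL13 and at 13.34, 13.17 and 13.32 in siNC. The same ranking was seen in HSPD1, the mitochondrial chaperonin, which was lowest in siNC replicate 2 (14.03) and second lowest in the library labelled siRPL13 replicate 3 (14.10). Its groups overlapped, with 14.20, 14.25 and 14.10 in siRPL13 and 14.28, 14.03 and 14.18 in siNC. CCT3, CCT4, CCT5, CCT6A and CCT7 had 5-library differences of 0.03, 0.03, 0.07, 0.04 and 0.06, and CCT6B one of -0.05. Over all genes tested, deviations from the group mean in siNC replicate 2 and in the library labelled siRPL13 replicate 3 also correlated (Pearson r = 0.454 across genes, which are not independent replicates); its part in the chaperonin values was not tested.

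**Figure D5:**
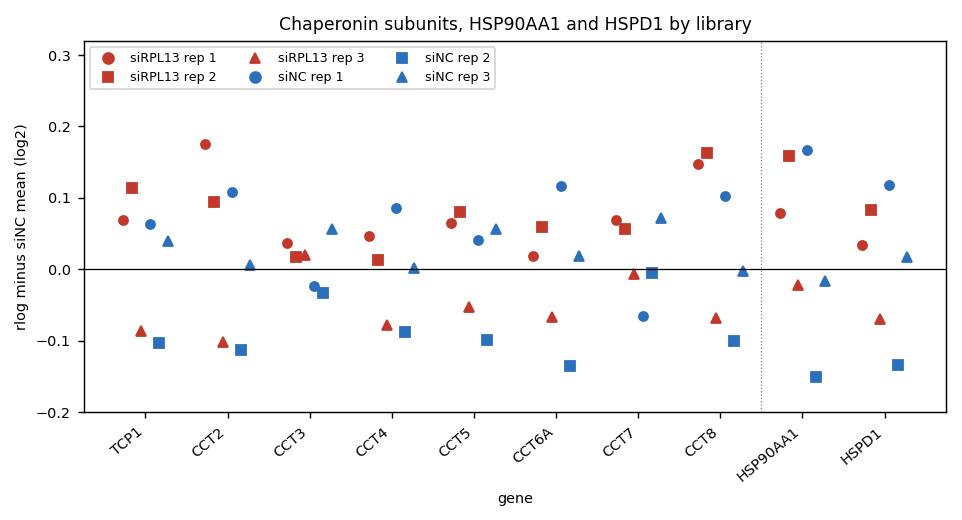
Rlog minus the mean of the 3 siNC libraries (vertical axis, log2) for the 8 common chaperonin subunits, HSP90AA1 and HSPD1 (horizontal axis), with 1 point per library, siRPL13 in red left of siNC in blue within each gene, and symbols differing by replicate number. The blue square of siNC replicate 2 is the lowest point for 7 of the 8 subunits, and the red triangle of siRPL13 replicate 3 is near it.

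Mitochondrial chaperones were not called. Of 9 members with a known place in mitochondria 0 passed the test (limma) with 5 libraries, beside 19.1% of all genes. With all 6 there were 0, beside 0.00%. An unadjusted p under 0.05 (limma) came in 1, DNAJC15, with 5 libraries, beside 33.4%, and in 0 with all 6, beside 8.32%. With 5 libraries 7 of the 9 differences were negative, with a median of -0.09. HSPA9 (mortalin), the HSP70 of the matrix, stood at 13.79, 13.80 and 13.72 in siRPL13 and at 13.88, 13.83 and 13.81 in siNC. The HSPA9 groups did not overlap, and the lowest of the 6 was the library labelled siRPL13 replicate 3, in which RPL13 was not lowered. The HSPA9 difference was -0.07 ± 0.06 (SE) over all 6 libraries and -0.05 ± 0.05 with 5 (limma adjusted p 0.688 and 0.544). HSPE1, the lid of HSPD1, stood at 10.78, 10.86 and 10.93 in siRPL13, against 10.92, 10.89 and 10.94 in siNC, a 5-library difference of -0.10 ± 0.05 (adjusted p 0.227). HSPE1 and HSPD1 lie head to head on chromosome 2 with overlapping annotated spans. TRAP1, the mitochondrial HSP90, had a difference of 0.01 ± 0.07. DNAJC15, a J-protein of the inner membrane import motor, stood at 4.82, 4.94 and 5.04 in siRPL13 and at 5.12, 5.14 and 4.96 in siNC (difference -0.20 ± 0.07, adjusted p 0.0813, limma).

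The chaperones that work at the ribosome were looked at separately, since the siRNA targets a ribosomal protein gene. HSPA14 and DNAJC2 form the ribosome-associated complex that meets nascent chains, and DNAJC21 acts in the maturation of the large subunit. None of the 3 was called (limma) with 5 libraries, beside 19.1% of all genes, or with all 6, beside 0.00%. At an unadjusted p under 0.05 (limma) there was 1, DNAJC21, with 5 libraries, beside 33.4% of all genes. With all 6 there were 0, beside 8.32%. HSPA14 stood at 9.95, 9.89 and 9.91 in siRPL13 and at 10.00, 9.82 and 9.92 in siNC, a 5-library difference of 0.01 ± 0.07 (SE; 95% interval -0.14 to 0.15). DNAJC2 stood at 9.23, 9.28 and 9.33 in siRPL13, against 9.12, 9.46 and 9.40 in siNC. The siNC spread was wider than the siRPL13 one. DNAJC2 shares parts of its annotated span with the more abundant PMPCB and PSMC2 (mean rlog 11.41 and 12.6) on the opposite strand. DNAJC21 stood at 10.38, 10.39 and 10.15 in siRPL13 and at 10.15, 10.22 and 10.26 in siNC; replicates 1 and 2 of siRPL13 were above all siNC libraries, with a difference of 0.17 ± 0.06 and an adjusted p of 0.0569 (limma).

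Partners outside the symbol rule were called about as often as genes in general, 13 of 71 or 18.3% beside 19.1% of all genes. The 71 include DNLZ, which was too low to be tested. The share was 23.5% of the HSP90 cochaperones, 27.3% of the HSP70 partners, 9.09% of the chaperonin partners, 12.5% of the other HSF1 targets, 40% of the heat shock factor relatives and regulators and 9.09% of the mitochondrial proteases, in lists of 10 to 17 genes. Of 17 HSP90 cochaperones 3 rose and 1 fell: CHORDC1, a heat-inducible HSP90 partner, rose by 0.41 ± 0.08 (SE), SUGT1 rose by 0.28 ± 0.06, STUB1 (CHIP), the ubiquitin ligase of HSP70 and HSP90 clients, rose by 0.26 ± 0.05, and PTGES3 (p23) fell by 0.23 ± 0.07. Of 11 tested HSP70 partners and exchange factors 2 rose, STUB1 and HSPBP1 (0.21 ± 0.05), and 1 fell, HYOU1, the HSP110 of the reticulum (-0.30 ± 0.05). STUB1 stood at 11.36, 11.26 and 11.14 in siRPL13 and at 11.01, 11.07 and 11.08 in siNC, and HSPBP1 at 11.22, 11.17 and 11.07 in siRPL13 and at 10.94, 10.98 and 11.03 in siNC; in both genes all 3 siRPL13 libraries lay above all siNC libraries. Of 11 prefoldin and phosducin-like partners of the chaperonin 1 fell, PDCL (-0.20 ± 0.06), and 0 rose. Of 16 other known HSF1 targets 2 rose, CHORDC1 and HMOX1, and 0 fell. HMOX1, which encodes heme oxygenase and is also a target of NRF2, stood at 11.60, 11.26 and 10.75 in siRPL13, against 10.51, 10.71 and 10.73 in siNC. Of 10 heat shock factor relatives and regulators CREBBP (0.21 ± 0.05) and GSK3B (0.29 ± 0.05) rose, and VCP, the segregase that extracts ubiquitinated proteins (-0.45 ± 0.05), and HDAC6 (-0.21 ± 0.07) fell. Of 11 mitochondrial proteases and related factors 1 fell, LONP1 (-0.31 ± 0.07). Adjusted p-values of these 13 partner genes, 7 higher and 6 lower, lay between 0.000684 and 0.0480 (limma, 5 libraries).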

How the data were processed

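RNA sequencing of 6 libraries was deposited by the authors as 1 table of rlog (log2) values, so named in its title, with a value for each Ensembl gene in each library. DESeq2, HTSeq 0.6.1p1, TopHat, Trimmomatic 0.33 and the build GRCh38.p7 are listed in the submitters' processing notes, without roles or settings. Read depth and strand handling are not given in the sources used here. No count model was used, since the deposited log2 values are not counts. Each library's group and number come from its label.

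Symbols came from a table of current names (20499 of 21429 identifiers) and GENCODE 29 (20608, with positions, types and exon lengths); 821 were in neither. Genes averaging 3 or more across the 6 libraries entered a two-sided limma test (version 3.58.1, R 4.3.3, lmFit and trended eBayes), Benjamini-Hochberg adjusted over 15327 genes, at a threshold of 0.05. Intervals are 95% intervals from the same fit. The fit was run with all 6 libraries and with 5, leaving out the library labelled siRPL13 replicate 3, and was tested on simulated data. Members, lists and the choice of the 5-library comparison were made with earlier results of these data known.

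Named genes are a fixed set of core chaperones and factors, every member past the threshold, the extreme members of each family, and up to 3 called genes per direction and partner list. HSPA12A, DNAJC3, DNAJC30, DNAJC10, DNAJB6, DNAJB14, HSPA6, HSPA2, BAG1, BAG2 and BAG4 were named after their values were seen. Other settings were each library left out, the replicate number as a block, library weights, an eBayes step without or with a robust trend, centring on medians, scaling to equal quantiles, and a filter of 5 or none. Figures were drawn with matplotlib 3.10.9.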

Additional observations from a re-analysis of the deposited data

How the results depend on the processing

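With all 6 libraries 0 members were called in either direction under every setting except library weights (8 higher and 10 lower, 11.4% and 14.3% of members beside 17% and 17.7% of all genes) and the leave-one-out fits, which ran from 0 to 3 higher and from 0 to 6 lower; the highest of both is the fit without the library labelled siRPL13 replicate 3. The weight of that library was 0.163 and that of siRPL13 replicate 2 was 7.18. With these weights HSF1 and HSP90AA1 were among the members called higher (limma adjusted p 0.0139 and 0.0379). DNAJB1 was among those called lower (limma adjusted p 0.0172). In the 5-library comparison 3 members were higher and 6 lower; the count of higher members became 6 with quantile scaling, 1 without a variance trend and 5 with library weights (9.64%, 7.63% and 13.1% of all genes higher), and the leave-one-out fits ran from 0 to 6 higher and from 0 to 8 lower. The highest count of higher members, 6, came without siNC replicate 1, and 1 was higher without siNC replicate 3. The lone siRPL13 library left when a further one is dropped is assumed to vary like the siNC libraries. No called member changed sign under any setting run. The falls of DNAJB11 and DNAJB9 were lost in 1 of 13 settings each, without siRPL13 replicate 1 (adjusted p 0.0621 and 0.149, limma), those of BAG3, DNAJB12 and DNAJB2 and the rise of DNAJC16 in 2 each, without siRPL13 replicate 1 and without siRPL13 replicate 2. HSPB1 and DNAJC5 were lost in 5 settings and BAG5 in 7. With the replicate block the count was 0 in both directions with all 6 libraries, beside 0.00% of all genes. With 5 libraries that block gave 2 higher and 6 lower, beside 8.65% of all genes higher and 11.2% lower. Deviations from the group mean in same-numbered libraries correlated at r = 0.084, -0.428 and -0.328 across genes. A pair with different numbers, siRPL13 replicate 3 and siNC replicate 2, reached 0.454. Such correlations cannot show whether same-numbered libraries shared a culture or a day. The cause of these shifts was not tested. Depth is unknown, and shrinkage in the rlog limits what low members such as HSPA6, HSPA2 and DNAJA4 can show.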
